A study of Mus musculus with 12 samples.

Results

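The kainate and delta glutamate receptor genes comprised 6 genes, *Grik1*, *Grik2*, *Grik3*, *Grik4*, *Grik5* and *Grid1*, of 22028 protein-coding genes in the annotation. An eCLIP peak was counted for a gene when its centre lay inside the annotated span (GENCODE vM21, mouse genome build mm10) and on the strand of that gene. By this rule 24 of 2057 whole-brain peaks and 3 of 178 hippocampal peaks of the RNA-binding protein SLM2 belonged to these genes, 25 of them to *Grik2*.

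The data were obtained by eCLIP, in which RNA crosslinked to a protein by UV light is immunoprecipitated with that protein and sequenced beside a size-matched input library. The series held 12 libraries of 30-day-old mice, 2 in each of 6 groups: wild-type whole-brain eCLIP and its input, wild-type hippocampal eCLIP and its input, and hippocampal eCLIP and input of *Slm2* KO mice. The KO libraries, labelled as a negative control, were not analysed here. Each wild-type tissue had 1 list that merged both replicates, so each peak carried a single value and no spread between replicates could be given. The lists hold neither read counts nor RNA levels, so the depth behind a peak was unknown and a gene without a peak could not be told apart from a gene with little RNA in that tissue.

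Kainate receptors are glutamate-gated cation channels assembled from 4 subunits, and they act both postsynaptically and at presynaptic terminals, where they tune transmitter release. GluK1, GluK2 and GluK3, the products of *Grik1*, *Grik2* and *Grik3*, form channels on their own, whereas GluK4 and GluK5, the products of *Grik4* and *Grik5*, bind glutamate with high affinity and need one of the other subunits to form a channel. *Grid1* encodes the delta receptor GluD1, which belongs to the same superfamily by sequence and acts mainly as a synaptic organizer that binds cerebellins, the secreted partners of neurexins. SLM2 (gene *Khdrbs3*) is a STAR-family RNA-binding protein of neurons that recognises short A/U-rich elements written UWAA, where W is A or U.

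For *Grik1* and *Grik2*, the peak with the highest log2 fold change of eCLIP over input in each tissue is printed below to show how UWAA elements were spaced in the recovered RNA. The sequences are the gene strand of the mm10 reference (RefSeq), 5′ to 3′, with every base of a UUAA or UAAA match in capitals, and overlapping matches run together. They cover chr10:49258406-49258516 and chr10:49253682-49253830 on the minus strand in *Grik2* and chr16:87907206-87907361 on the minus strand in *Grik1*.
Grik2 whole-brain peak 8: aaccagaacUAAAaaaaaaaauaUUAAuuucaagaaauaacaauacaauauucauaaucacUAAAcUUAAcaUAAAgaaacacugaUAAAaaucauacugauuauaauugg
Grik2 hippocampal peak 3: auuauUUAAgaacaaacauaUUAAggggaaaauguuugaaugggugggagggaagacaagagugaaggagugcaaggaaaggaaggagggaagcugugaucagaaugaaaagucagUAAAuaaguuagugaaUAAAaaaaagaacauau
Grik1 whole-brain peak 1: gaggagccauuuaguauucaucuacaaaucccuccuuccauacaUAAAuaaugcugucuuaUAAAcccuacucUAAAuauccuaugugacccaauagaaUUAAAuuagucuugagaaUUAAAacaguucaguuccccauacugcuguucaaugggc

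The *Grik2* whole-brain peak held 6 UWAA starts in 111 nt and was 80.2% A and U. The *Grik2* hippocampal peak held 4 in 149 nt, gathered at its 2 ends around a purine-rich stretch without any. The *Grik1* peak held 7 in 156 nt. Across the whole-brain list, 83.6% of all 2057 windows of 101 nt around a peak centre held at least 1 UWAA (UUAA or UAAA, gene strand only), so its presence alone was common.

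*Grik2* held nearly all of the SLM2 peaks in this family. It had 22 whole-brain peaks, *Grik1* and *Grik3* had 1 each, and *Grik4*, *Grik5* and *Grid1* had none. Hence 3 of 6 genes held a whole-brain peak, against a background of 1.91% of all protein-coding genes. Of the 421 genes with a whole-brain peak 368 spanned at least 50 kb, and all 6 members exceed that length. Among the 5009 protein-coding genes of at least 50 kb the share with a whole-brain peak was 7.35%, and among the 2493 of at least 100 kb it was 12.4%. In the hippocampus 1 of 6 genes, *Grik2*, held a peak, against 0.377% of all protein-coding genes, 1.36% of those of at least 50 kb and 2.61% of those of at least 100 kb. The whole-brain list held 2057 peaks and the hippocampal list 178, so far fewer genes of any kind appeared in the hippocampus. The 6 genes were chosen with earlier results of these data known, so their shares were set beside the background and not tested.

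Gene length did not order the members. *Grid1* was the longest, at 763 kb (chr14:34820108-35583379, plus strand), and had no peak in either tissue. *Grik2* spanned 694 kb (chr10:49094833-49788766, minus strand) and had 3.17 whole-brain peaks per 100 kb. *Grik4* spanned 426 kb (chr9:42518135-42944493, minus strand) without a peak, and *Grik1* 394 kb (chr16:87895900-88290265, minus strand) with 0.254 peaks per 100 kb. *Grik3*, at 223 kb (chr4:125490700-125714173, plus strand), had 0.447 peaks per 100 kb, and *Grik5*, the shortest at 62.5 kb (chr7:25009849-25072346, minus strand), had none. Of the 421 protein-coding genes with a whole-brain peak, 236 had a single one, as *Grik1* and *Grik3* did, and 21 had more than the 22 of *Grik2*.

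**Figure D1:**
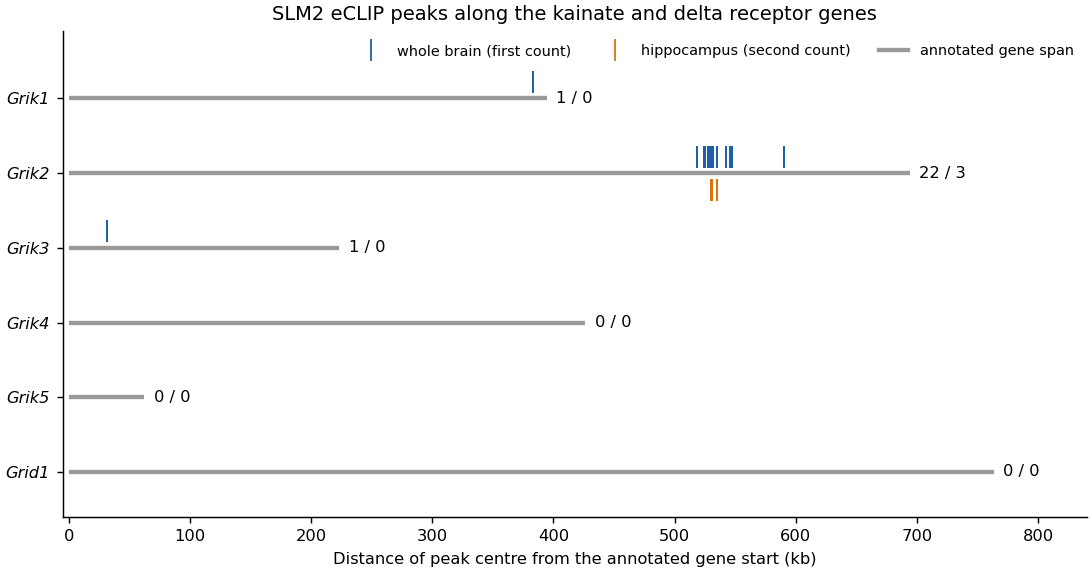
Peaks along the 6 genes, drawn to scale. The horizontal axis is the distance of each peak centre from the annotated gene start in kb; grey bars are gene spans, blue ticks whole-brain peaks, orange ticks hippocampal peaks, and the numbers give whole-brain and hippocampal peak counts. The 22 whole-brain peaks of Grik2 lie between 519 and 591 kb from the gene start, and Grik4, Grik5 and Grid1 carry no tick.

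Within *Grik2* the peaks were confined to the last part of the gene, and most of them to 1 intron. In the principal 17-exon transcript Grik2-207, intron 12 (chr10:49244444-49272739) held 17 of the 22 whole-brain peaks, which is 77.3% of them in 4.08% of the gene length. The short intron 13 (chr10:49240797-49244324, 3.53 kb) held 4, and intron 14, which is 108 kb long, held 1. Introns 1 to 11, among them the 205-kb intron 2, held none. The exon between introns 12 and 13 is exon 13, 119 nt long (chr10:49244325-49244443). It encodes part of the channel pore, including the Q/R codon (CAG, codon 621) at which adenosine deamination of the RNA exchanges a glutamine for an arginine, a change known to lower calcium permeability of kainate receptors. The edited adenosine lies at chr10:49244330, and 17 peaks were centred upstream of it and 5 downstream. The nearest peak centres were 1576 nt upstream and 1097 nt downstream, so no peak reached the exon itself.

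The *Grik2* peaks of intron 12 fell into clusters. In the direction of transcription, the first was an isolated peak at chr10:49269934-49270019, 2721 nt past exon 12, with a log2 fold change of 2.73. Peaks at chr10:49264560-49264648 and chr10:49263348-49263415 followed with 2.19 and 2.27, and a group of 3 over 810 nt (chr10:49260387-49261196) had 2.25, 2.30 and 2.55. The densest group of the gene came next, with 7 peaks over 1689 nt (chr10:49257153-49258841), near the middle of the intron and over 12 kb from exons 12 and 13. Its second peak, chr10:49258406-49258516, had the highest log2 fold change of all 6 genes, 4.38, with a −log10 p of 15.3 and a −log10 IDR (irreproducible discovery rate, the agreement between replicates) of 4.26. The other 6 peaks of that group had log2 fold changes of 2.76, 2.25, 2.27, 2.47, 2.76 and 2.37, so a single 111-nt segment stood well above its neighbours. A further group of 3 over 620 nt (chr10:49253495-49254114) had 2.08, 2.43 and 2.25, and the last peak of the intron, chr10:49245872-49245940, had 2.45 at 1429 nt before exon 13.

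In intron 13 of *Grik2* the peaks formed 2 pairs. The pair at chr10:49243054-49243271 had log2 fold changes of 2.22 and 2.24, and the pair at chr10:49241408-49241600 had 2.02 and 3.09. The peak with 3.09, chr10:49241408-49241489, was the second highest of the gene and lay 612 nt before exon 14. The downstream pair was centred inside the 2458-nt exon of the retained-intron transcript Grik2-203 (chr10:49240579-49243036). The upstream pair ended 159 and 18 nt before that exon. Intron 14 had the peak farthest downstream, chr10:49198143-49198267, with a log2 fold change of 2.56, which was 42312 nt from the nearest exon of a protein-coding transcript and 4251 nt from the last exon of the transcript Grik2-208.

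Peak numbers depended on how the list divides a bound stretch. Several *Grik2* neighbours were separated by 1, 4 or 8 nt, and with gaps of at most 50 nt closed the 24 whole-brain peaks of the family became 20 sites. With gaps of at most 1 kb closed, the 22 peaks of *Grik2* formed 10 sites.

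**Figure D2:**
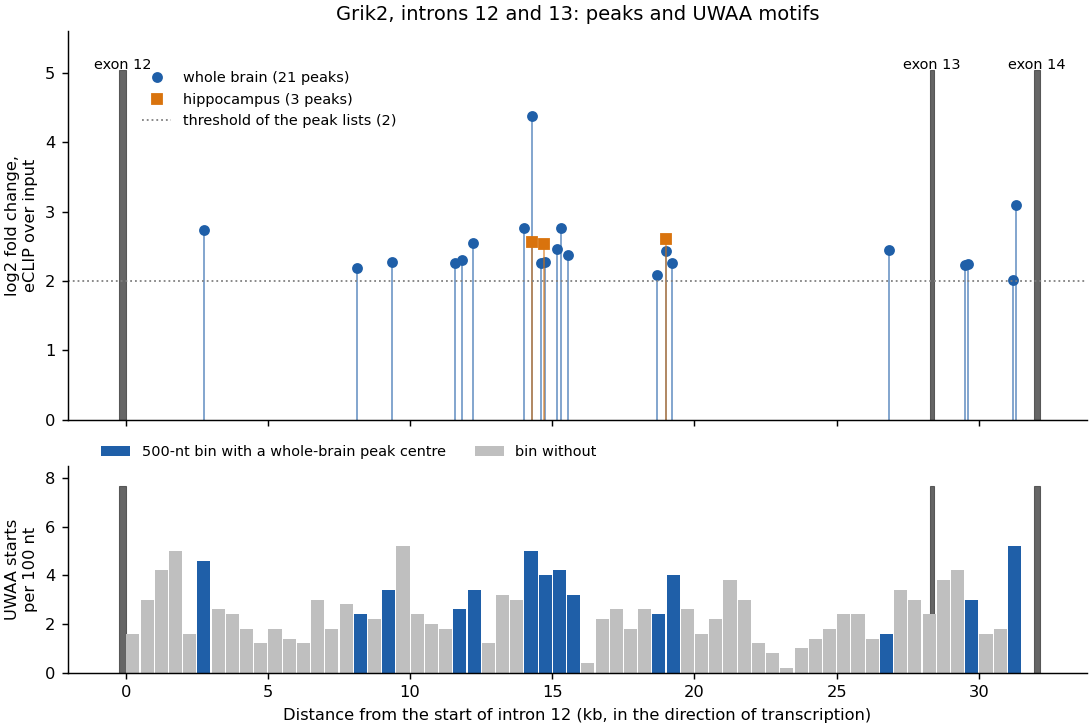
The region of Grik2 from exon 12 to exon 14, against the distance from the start of intron 12 in kb. Upper panel: log2 fold change of eCLIP over input for each peak (blue circles whole brain, orange squares hippocampus), with the threshold of the lists at 2 as a dotted line and exons as dark bars; 1 whole-brain peak reaches 4.38, and the others stay between 2.02 and 3.09. Lower panel: UWAA starts per 100 nt in 500-nt bins, blue where a whole-brain peak is centred and grey elsewhere; blue bins run from 1.6 to 5.2 and grey bins from 0.2 to 5.2.

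*Grik1*, whose product GluK1 occurs with alternative C-terminal tails, had its only peak near the 3′ end of the gene at chr16:87907206-87907361. Its log2 fold change was 2.13, its −log10 p 4.05 and its −log10 IDR 2.25, the lowest log2 fold change among the 3 genes' leading peaks. The peak lay in intron 15 of transcript Grik1-202, 5055 nt past the last exon of the shorter transcript Grik1-206 (chr16:87912416-87912869) and 10311 nt before an 87-nt exon of Grik1-202 (chr16:87896809-87896895). It thus fell between exons that differ among the annotated *Grik1* transcripts, without touching either. The Q/R codon of *Grik1*, which is also codon 621 and in a 119-nt exon, was 33260 nt upstream of the peak, so the arrangement around that codon in *Grik2* had no counterpart in the list for *Grik1*.

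*Grik3*, which encodes the low-affinity subunit GluK3, had its only peak in the first intron. The log2 fold change was 2.42, the −log10 p 4.08 and the −log10 IDR 2.20. Intron 1 is the longest of the gene, at 133 kb, and the peak lay far from both of its exons.

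Few member peaks touched an exon. Of the 24 whole-brain peaks, 22 were intronic (91.7%, exact 95% binomial interval 73.0 to 99.0%), and the other 2, both in *Grik2*, lay in the retained-intron exon. No member peak was centred in a coding exon or an untranslated region. Over the other 2033 whole-brain peaks the intronic share was 94.7% (93.7 to 95.7%), inside the interval of the members. The intervals cover counting error only and take the peaks as independent, although most member peaks were of *Grik2*. Within 500 nt of any annotated exon there were 4 peaks, the 2 pairs of *Grik2* intron 13, and with exons of protein-coding transcripts alone there were 0.

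The hippocampal peaks of *Grik2* were nested in whole-brain peaks. The first, chr10:49258412-49258507, lay wholly inside the strongest whole-brain peak, with a log2 fold change of 4.38 in whole brain and 2.57 in hippocampus. The second, chr10:49257976-49258053, lay inside whole-brain peak 10 of *Grik2*, at 2.27 in whole brain and 2.53 in hippocampus. For the third, chr10:49253682-49253830, the values were 2.43 in whole brain and 2.61 in hippocampus. The 3 hippocampal fold changes thus lay within 0.1 of each other, while the whole-brain fold changes at the same places did not. By log2 fold change the hippocampal list did not single out the segment that led in whole brain. By −log10 p and −log10 IDR, at 1.41 and 3.11, that segment was narrowly the first of the 3 in hippocampus.

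The −log10 p values of these whole-brain peaks were 15.3, 10.0 and 11.2, and those of the hippocampal peaks inside them 1.41, 1.33 and 1.40. All 3 hippocampal values were below 2, as were 95 of all 178 hippocampal peaks (53.4%) and none of the 2057 whole-brain peaks. The −log10 IDR values of the hippocampal peaks, 3.11, 3.03 and 3.09, were all above 3. With a −log10 p of at least 2 asked for, no hippocampal peak of the 6 genes was left. Of all 178 hippocampal peaks, 55 met a whole-brain peak (30.9%, exact 95% binomial interval 24.2 to 38.2%), and all 3 of *Grik2* did (29.2 to 100%). The depth of both lists was unknown, so fold changes were set side by side and not tested.

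The median log2 fold change was 2.33 for the 24 member peaks and 2.56 for the other 2033. The median −log10 p was 5.92 for member peaks and 4.30 for the others, and the median −log10 IDR 2.61 and 2.42. *Grik2* set these medians with 22 of the 24 peaks, while the *Grik1* and *Grik3* peaks had −log10 p values of 4.05 and 4.08, under the median of the other peaks. Only 2 member peaks, both of *Grik2*, had a log2 fold change of at least 3, and 8, again all of *Grik2*, had a −log10 IDR of at least 3. The single peaks of *Grik1* and *Grik3* met neither limit.

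UWAA elements were frequent both at the peaks and around them. Every 101-nt window at a member peak centre held at least 1 UWAA, 24 of 24 in whole brain (exact 95% interval 85.8 to 100%). Among the other windows the share was 83.4% (81.7 to 85.0%). Of the 24 member windows 22 were of *Grik2*, many of them close together. The interval takes them as independent, so the shares were set side by side and not tested. The mean density was 4.34 UWAA starts per 100 positions at the 24 peaks and 3.02 in their flanks 450 to 550 nt away, which differ by 1.32. The other 2033 peaks averaged 3.59 and their flanks 1.79, which differ by 1.80. For *Grik2* alone the difference was 1.07, and the order of all member peaks and the others depended on the setting. Without flank windows on another peak the difference was 1.72 for member peaks and 1.91 for the others. In windows with at most 20% masked bases it was 1.79 over 8 member peaks and 1.28 over 803 others. As a mean over genes it was 3.08 for the members and 1.78 for the rest, so the order turned round in both. *Grik2* alone stayed below the others in these settings, at 1.48, 1.17 (7 peaks) and 1.07. In the mean over genes the single peaks of *Grik1* and *Grik3* each count as much as the 22 of *Grik2*. The peak was above its flanks at 16 of 24 member peaks, below at 6 and equal at 2.

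Individual genes differed in this contrast. *Grik1* had 7.14 at its peak and 1.53 in its flanks, and the *Grik3* peak was also above its flanks. In *Grik2* the mean was 4.22 at 22 peaks and 3.15 in the flanks, with peak values between 1.02 and 8.16. The highest belonged to the 309-nt peak chr10:49260387-49260695, whose flanks held none, and the strongest peak by fold change had 6.12 at its centre and 4.59 in its flanks. At whole-brain peak 15 (chr10:49253594-49253871), which encloses the third hippocampal peak, the order was the other way, with 2.04 at the peak and 6.63 in the flanks. For the 3 hippocampal peaks the mean was 3.74 at peaks and 4.93 in flanks, and 1 of 3 was above its flanks.

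**Figure D3:**
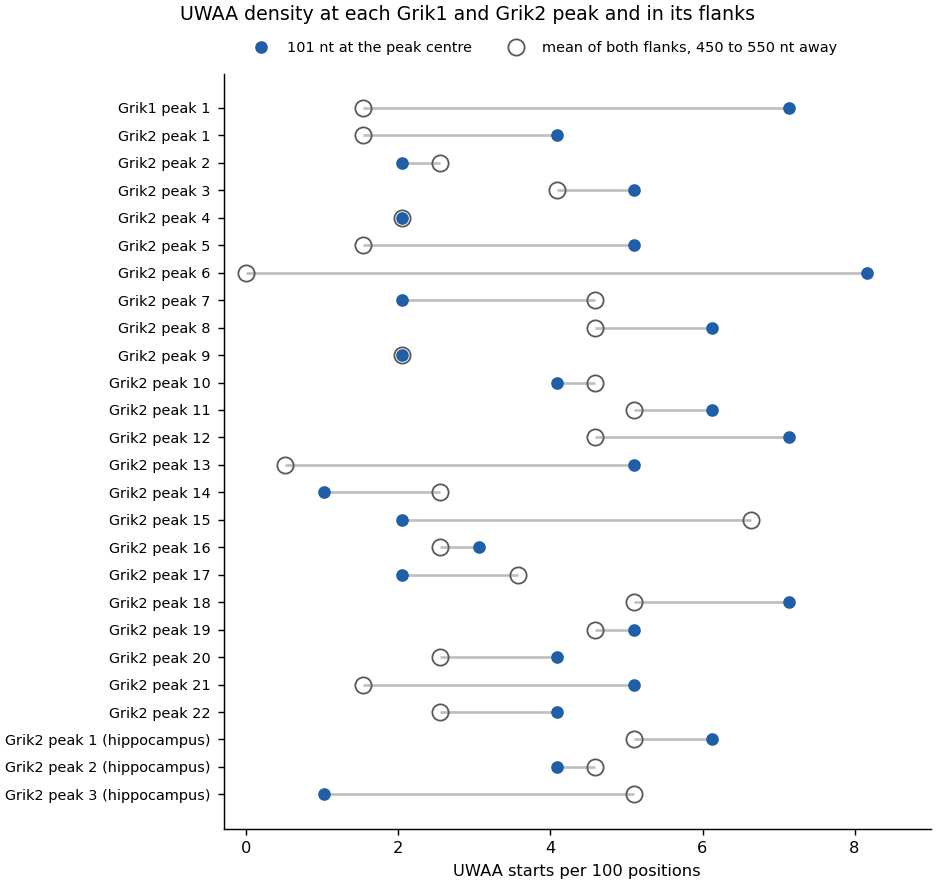
UWAA starts per 100 positions for each peak of Grik1 and Grik2 (rows, numbered in the direction of transcription within each gene and tissue), filled circles for the 101 nt at the peak centre and open circles for the mean of both flanks. The filled circle lies right of the open one at the Grik1 peak, at 14 of 22 whole-brain peaks of Grik2 and at 1 of 3 hippocampal peaks, and the longest bar is that of Grik2 peak 6, at 8.16 and 0.

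Crowding of *Grik2* peaks touched the flanks. Of its 44 whole-brain flank windows, 11 overlapped another peak of either list, and 3 of the 6 hippocampal ones did. With those windows left out, the whole-brain difference over the members was 1.72 on 22 peaks, and the hippocampal one was −0.51 on 2 peaks. With the window narrowed to 25 nt on each side the whole-brain difference was 0.367. In the profile around member peak centres the highest bin was the one centred 50 nt upstream, with 5.50 UWAA starts per 100 nt, and the central bin had 3.42. The other whole-brain peaks also had their highest bin there, at 4.16, with 3.63 in the central bin. The 2 profiles differed away from that bin. The outermost bins, 500 nt upstream and downstream, had 3.67 and 3.75 at member peaks, above their central bin. At the other peaks they had 1.86 and 1.69, below the central bin.

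**Figure D4:**
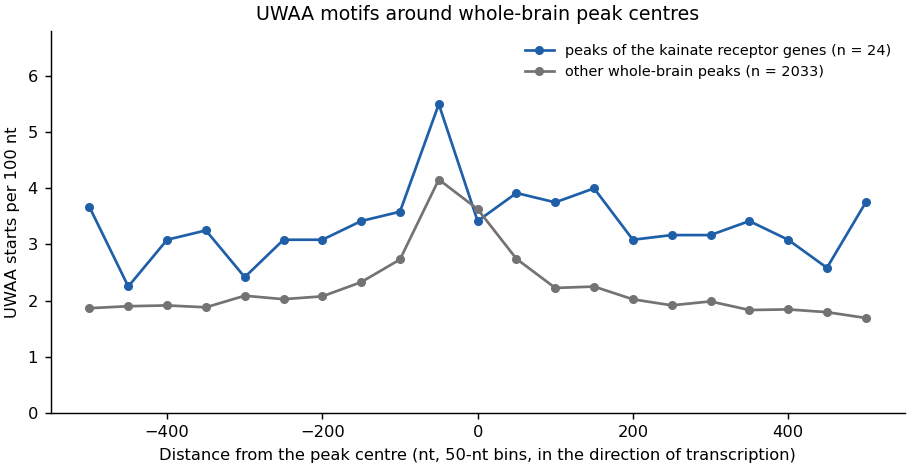
UWAA starts per 100 nt in 50-nt bins against the distance from the peak centre in nt, for the 24 whole-brain peaks of Grik1, Grik2 and Grik3 (blue) and the other 2033 whole-brain peaks (grey). Both lines are highest in the bin 50 nt upstream, at 5.50 and 4.16, and the blue line stays above 2 over the whole range. In the central bin the blue line, at 3.42, is below its ends at 3.67 and 3.75. The grey line, at 3.63, is there above its ends at 1.86 and 1.69.

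A longer element that contains UWAA was searched on the gene strand in its form UUUAAAA and in a second form with an A in place of the third base, UUAAAAA. Either form occurred in 2 of 24 whole-brain windows (8.33%, exact 95% interval 1.03 to 27.0%), among them 1 window of *Grik2*, at chr10:49243195-49243271, against 19.0% of the other windows (17.4 to 20.8%). The interval of the member windows includes the share of the others. Most of the 24 member windows were of *Grik2* and not independent, so the shares were set side by side and not tested. None of the 3 hippocampal windows held it.

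Base composition moved with the motif. Windows at member peaks were 71.1% A and U and their flanks 68.1%, against 63.1% at the other peaks and 60.6% in the other flanks. Introns of *Grik2* were also the richest of the 6 genes in UWAA, with 1.81 starts per 100 positions and 64.5% A and U. *Grik1* introns had 1.50 and 60.5%, *Grid1* introns 0.988 and 56.6%, *Grik4* introns 0.748 and 52.0%, *Grik3* introns 0.619 and 49.9%, and *Grik5* introns 0.612 and 49.2%. *Grik3*, with a peak, was thus below *Grid1* and *Grik4*, which had none. The part of base composition in the placing of the peaks was not tested.

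Inside *Grik2*, introns 12 and 13 stood at 2.50 and 3.15 UWAA starts per 100 positions over their whole length. Intron 16, which held no peak, had 2.98, and intron 2, the longest, had 1.76. Intron 12 was divided into adjoining windows of 101 nt, and of the 246 that met no peak 77.6% held at least 1 UWAA and 22.4% held at least 4, the median number at the 17 peaks of that intron. Many stretches of intron 12 thus had as many UWAA elements as a typical peak and were not in the list. Over both introns, the 14 bins of 500 nt with a whole-brain peak centre had a mean of 3.50 and the 49 bins without one 2.29.

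Repeat-masked sequence was common at the peaks. At most 20% of bases were masked in 11 of 24 member windows (45.8%, exact 95% interval 25.6 to 67.2%), and in 49.1% of the other windows (46.9 to 51.3%). No member peak held a run of 10 or more bases identical to an adaptor of the protocol, whereas 20 of the other whole-brain peaks and 7 of the other hippocampal peaks did. No second gene on the same strand overlapped the centre of a member peak.

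Some genes whose products work with kainate and delta receptors also held peaks. Of 10 genes for auxiliary and interacting proteins of kainate receptors, *Neto1*, whose product is an auxiliary subunit that slows channel kinetics, held 2 peaks in whole brain, the stronger with a log2 fold change of 3.06. *Dlg4*, which encodes the scaffold PSD-95, held 1 hippocampal peak at 2.09, and *Neto2*, *C1ql2*, *C1ql3*, *Pick1*, *Grip1*, *Grip2*, *Cask* and the editing enzyme gene *Adarb1* held none in either list. Among 6 genes for partners of delta receptors described here, the cerebellin genes *Cbln1*, *Cbln2*, *Cbln3* and *Cbln4* held none, while *Nrxn2* and *Nrxn3*, which encode neurexins, held 10 and 12 whole-brain peaks and 2 hippocampal peaks each. Thus 1 of 10 and 2 of 6 genes of these lists held a peak in whole brain, and as many in the hippocampus, beside 1.91% and 0.377% of all protein-coding genes. Among protein-coding genes of at least 100 kb the shares were 12.4% and 2.61%. *Neto1*, *Nrxn2* and *Nrxn3* spanned 112, 125 and 1612 kb, and *Dlg4* 30.6 kb. The lists were chosen with earlier results of these data known, and the study itself names *Nrxn2* and *Nrxn3* as SLM2 targets. Their shares were therefore set beside the background and not tested. *Grid1* and the 4 cerebellin genes were thus absent from both lists.

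Peaks of the other glutamate receptor families were counted by the same rule. In whole brain 3 of 4 AMPA receptor genes held peaks, 24 in all, with 12 in *Gria2*, 10 in *Gria4* and 2 in *Gria3*, as many as the 24 of the kainate and delta receptor genes. Of 7 NMDA receptor genes, *Grin1* and *Grin2a* held 1 each, and of 8 metabotropic receptor genes 4 held 58, with 31 in *Grm4*, 17 in *Grm5*, 6 in *Grm7* and 4 in *Grm3*. Per 100 kb, *Grik2* had 3.17 whole-brain peaks. *Grm4* had 31.3, *Gria2* 9.89 and *Grin1*, a short gene with its single peak, 3.57, all above *Grik2*, and *Grm5* with 3.09, *Gria4* with 2.64 and the other 4 genes of these families with a peak were below it. In the hippocampus *Grik2* held 3 peaks, *Grin2a* held 2, and *Gria1*, *Gria2*, *Grm5* and *Grm7* held 1 each. No difference between the families was tested.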

How the data were processed

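SLM2 eCLIP and size-matched input libraries of wild-type whole brain and hippocampus were the source. According to the submitters' processing notes, reads were handled with cutadapt 3.4, UMI-tools 1.1.1 and STAR 2.7.9 on mm10, and the study's methods name CLIPper for peak calling and IDR for the comparison of replicates. The authors deposited 1 merged list per tissue, with a log2 fold change of eCLIP over input, a −log10 p for that comparison and a score, the −log10 IDR, for each peak. Each of these columns is the authors' own value, pooled over 2 replicates, and all listed peaks had a log2 fold change and a −log10 IDR of at least 2. The files name no columns, so these meanings were taken from the methods and the ranges of the values.

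Peaks were assigned by their centre to GENCODE vM21 genes on the same strand, and sequence was read from the RefSeq copy of GRCm38, the assembly of mm10. UWAA starts (overlaps counted) were taken in 101 nt at the centre and in flanks 450 to 550 nt away. Introns were numbered in the principal transcript of each gene. Shares have exact Clopper-Pearson intervals, which take peaks as independent although most member peaks were of 1 gene. No group comparison was tested. All 6 member genes and every peak of theirs were described, and of the fixed gene lists those with a peak were named; 1 listed gene could not be matched to the annotation, and 2 listed genes and 1 peak sequence are not reported here. Members and lists were chosen with earlier results of these data known. Alternatives covered thresholds, windows, masking, flanks, overlap and exon sets. Scripts used Python 3.11.15, pandas 2.3.3, scipy 1.17.1 and samtools 1.23.1, and were tested on simulated sequences and intervals.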

Additional observations from a re-analysis of the deposited data

How the results depend on the processing

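With a log2 fold change of at least 3, 2 whole-brain peaks in 1 gene and 0 hippocampal peaks were left. With a −log10 IDR of at least 3, there were 8 whole-brain peaks in 1 gene, *Grik2*, and 3 hippocampal peaks. With a −log10 p of at least 2, 0 hippocampal peaks in 0 genes were left. The whole-brain difference in UWAA density between peaks and flanks (1.32) stayed above 0 in all 8 alternatives. Among these, leaving out peaks with adaptor removed no member peak and so could not change the value. The difference was 0.367 with 25 nt on each side and 2.59 with the introns of the gene as flanks. As a mean over genes, in which each gene counts the same, it was 3.08. The hippocampal difference (−1.19, 3 peaks) was −2.15 with 25 nt and −0.723 with 100 nt on each side, and −0.510 without flank windows on another peak, an alternative chosen after seeing the data, as were the merging of neighbouring peaks and the same settings over the other peaks. Limited to windows with at most 20% masked bases, it could not be computed. With exons of protein-coding transcripts only, 0 whole-brain peaks lay within 500 nt of an exon. The background share of protein-coding genes with a whole-brain peak was 7.35% at 50 kb or more and 12.4% at 100 kb or more. Intronic share and overlap between tissues did not move. The cause of these shifts was not tested. No paired analysis was possible because each list merged both replicates into 1 value per peak, and no replicate could be left out for the same reason.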
